A study of Mus musculus with 12 samples.

Results

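BRD9-NUTM1 leukemia (BN1) was compared with normal bone marrow (WT) over 3 libraries of each group, taken from a series of 12 libraries in 4 groups. Every gene that passed a filter on low counts was used, which left 15334 of the 35976 genes in the count table. All mice were of the strain C57BL/6, and all libraries held CD45.2+ bone marrow cells sorted by flow cytometry, CD45.2 being an allelic form of a leukocyte surface protein. By genotype, WT cells were CD45.2(+) without a fusion gene, and BN1 cells were CD45.2(+) with BRD9-NUTM1, a fusion of the chromatin reader BRD9 with the germ-line protein NUTM1. The remaining 2 groups carried MLL-AF9 (MA9) or MLL-ENL (ME), and they entered the model of the spread and a side comparison. How the fusions were introduced, the ages of the mice and the number of mice or of founding clones behind a group are not stated in the labels. Whether the 3 libraries of a group are 3 animals is not stated either, so every p-value measures only the spread between these libraries, which may be technical.

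Normal marrow is a mixture of cells. Red cell precursors build a spectrin-based membrane skeleton and the transporters that carry gases and ions. Lymphocytes and natural killer cells carry receptors, adaptors and kinases that read antigen and neighbouring cells, and maturing granulocytes load granules and lipid mediator enzymes for release at sites of infection. In a leukemic marrow a single expanded population takes much of the place of that mixture. The comparison asks which functions and gene families stood lower or higher in the leukemia.

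Library totals were 19170183 to 21432949 counts in WT and 21942608 to 25732049 in BN1. Correlations of log CPM across genes, which are not independent replicates, were 0.993 to 0.994 between libraries of a group here and 0.796 to 0.800 between WT and BN1 libraries. Levels below are CPM, counts scaled to the effective size of the library, given as mean ± SD (n = 3 libraries per group) or library by library in the order 1, 2, 3. Changes are log2 fold changes ± SE from edgeR's quasi-likelihood test, and "fell" or "rose" means a Benjamini-Hochberg adjusted p under 0.05 over all genes tested. At few counts the SE falls short of the counting error. Where a group has no count the fold is a lower bound, computed against a floor of 3 counts over the group, and ratios against 1 to 3 counts carry a 95% counting interval. Bounds and intervals cover counting error only. The labels do not say whether reads were counted by strand, and values of overlapping or near-identical genes are uncertain.

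Most genes differed between the groups, so the share called is the yardstick for each list. Of the 15334 genes tested, 12146 (79.2%) were called, 5886 of them higher in BN1 (38.4%) and 6260 lower (40.8%), and the groups did not overlap for 80.3% of genes. A change of at least 2-fold was called for 37.7%, with 13.6% higher and 24.1% lower. With library size alone in place of TMM scaling the median log2 fold change moved from -0.01 to 0.11, and 6735 genes were higher and 5614 lower. The filter drew on all 4 groups. Between WT and BN1, genes past its level in WT alone had to be lower, or nearly so. Those past it in BN1 alone had to be higher in the same way. The counts of a list are therefore followed by those of its members "in both". These are members among the 11819 genes that reached the filter level of 0.48 CPM, by library total, in every library of both groups. Of the 11819, 43.5% rose and 36.3% fell, with a median log2 fold change of 0.08. Of 122 lists of families and functions, 91 had more members lower than higher, 27 the reverse and 4 an equal number. With library size alone these numbers were 78, 33 and 11. In both, 13 of those 91 had more members higher. These were potassium channels, calcium channel subunits, Trp channels, metal carriers, nucleoside and organic ion carriers, phosphodiesterases, collagens, Adam and Adamts proteases, other glycosyltransferases, cytochromes P450, carbonic anhydrases, eicosanoid synthesis and lipid droplets and lipases.

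Loss was concentrated in few genes, and the majority of expressed genes stayed near their normal level. Of the 10674 genes at 5 CPM or more in WT, 7690 (72.0%) stood between 50% and 200% of that level in BN1. Another 1275 stood at 10% to 50%, 454 at 1% to 10% and 384 (3.60%) at under 1%, and 113 of the last class had no count in any BN1 library. The genes at under 1% held 4.73% to 5.76% of the counts of the WT libraries and 0.00611% to 0.00626% of those of BN1. In the opposite direction, 60 of the 10078 genes at 5 CPM or more in BN1 stood at under 1% of that level in WT, and 14 of them had no count there. In a bulk sample, fewer cells of a type and less RNA per cell cannot be told apart. Long noncoding RNA genes were less often higher than protein-coding genes, with 25.9% of 1369 rising and 41.6% falling against 40.4% and 41.0% of 13157, a difference that was not tested.

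**Figure D1:**
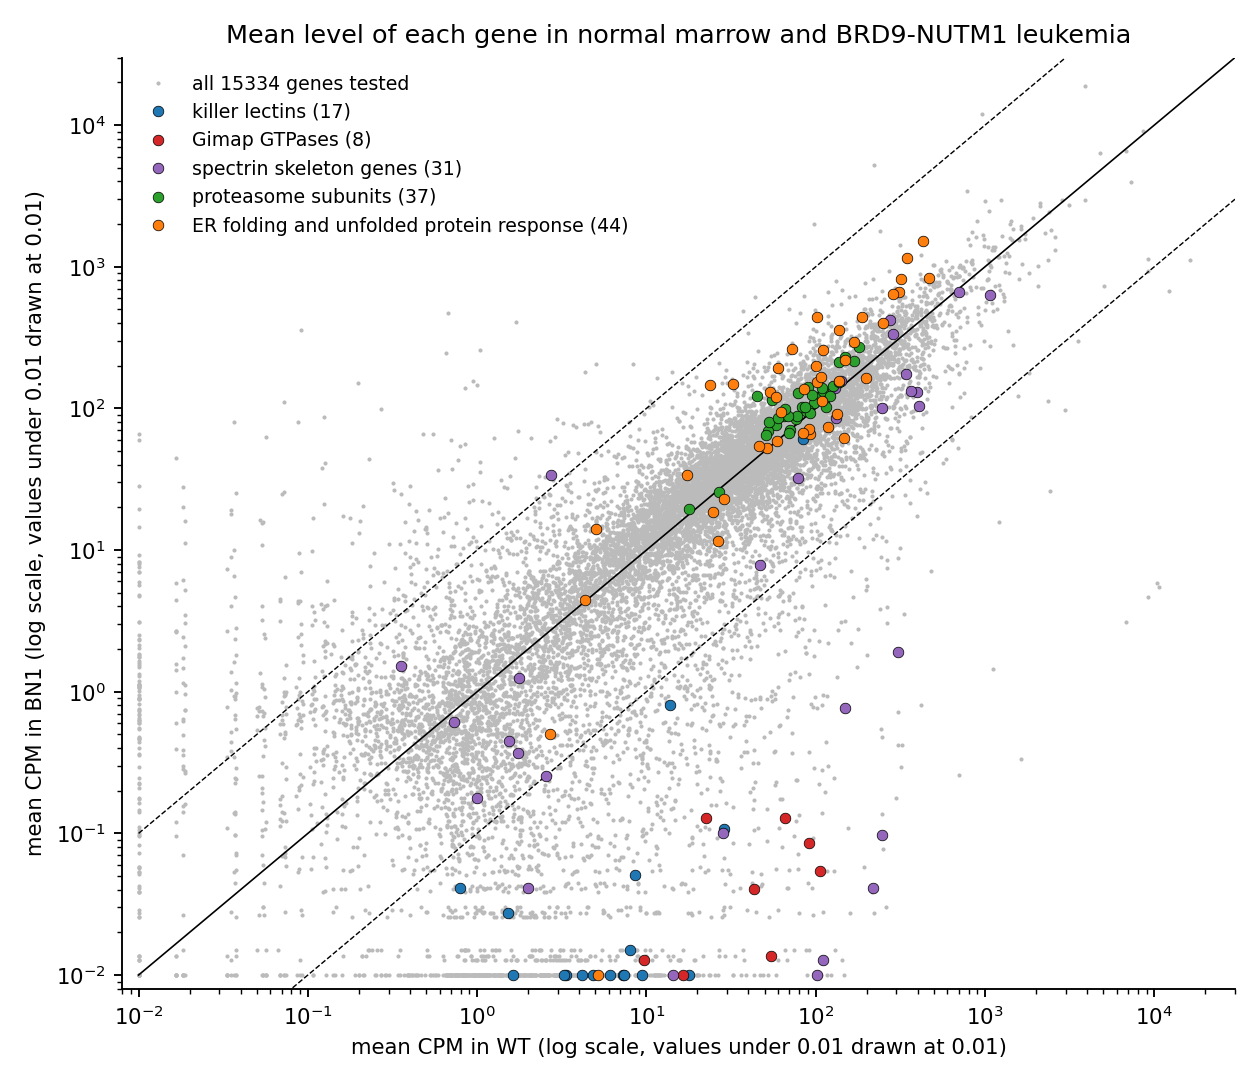
Mean CPM of each of the 15334 genes in WT (x axis, log scale) and BN1 (y axis, log scale), with equal levels on the solid line and 10-fold differences on the dashed lines. The 8 Gimap genes and most killer lectin genes lie at the bottom edge, and the 37 proteasome genes lie near the solid line.

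The levels of marker lists of 12 cell types come first. All 10 erythroid, 10 B cell, 10 T cell and 9 dendritic cell markers tested fell. Only 5, 2, 1 and 3 of them were past the filter level in both groups and the others had to be lower. Summed erythroid markers stood at 17066 to 22250.0 CPM in the WT libraries and 11.1 to 13.2 CPM in the BN1 libraries. Summed B cell markers stood at 1256 to 1421 CPM in the WT libraries and 7.53 to 8.50 CPM in the BN1 libraries, and T cell markers at 215 to 225 CPM in the WT libraries and 0.990 to 2.18 CPM in the BN1 libraries. Summed dendritic cell markers kept more, with 790 to 831 CPM in the WT libraries and 367 to 402 CPM in the BN1 libraries. Most members of that list did not, since 7 of the 9 fell at least 2-fold. Their median log2 fold change was -6.535 over the 9 members and -0.485 over the 3 past the filter level in both groups. Of 10 NK cell markers 9 fell, with a sum of 213 to 222 CPM in the WT libraries and 141 to 146 CPM in the BN1 libraries. Nkg7, a granule protein also on the primary granule list, rose (log2 fold change 1.85 ± 0.07) and made up most of what stood in BN1. Mature neutrophil markers, 10 of 10 lower, stood at 40864 to 43058 CPM in the WT libraries and 3295 to 3501 CPM in the BN1 libraries, so that list was lowered and not emptied. Megakaryocyte markers fell in 8 of 9 and eosinophil, basophil and mast cell markers in 8 of 9. The single members that rose were Gp1ba and Siglecf. Past the filter level in WT alone were 9 NK cell, 8 megakaryocyte and 6 eosinophil, basophil and mast cell markers, which had to be lower. The monocyte list had 6 of 10 members higher, with 1726 to 1955 CPM in the WT libraries and 4716 to 4924 CPM in the BN1 libraries, and 8 of 9 primary granule markers rose, with 1741 to 1848 CPM in the WT libraries and 21769 to 22418 CPM in the BN1 libraries. Stroma and endothelium markers fell in 5 of 6, and plasma cell markers in 6 of 7. In each of these lists 5 members were past the filter level in WT alone and had to be lower. The list sums stood at 92.8 to 95.5 CPM in the WT libraries and 90.0 to 93.8 CPM in the BN1 libraries for stroma and endothelium. For plasma cells they stood at 337 to 373 CPM in the WT libraries and 223 to 226 CPM in the BN1 libraries. The single member of each list that rose, Pecam1 and Xbp1, makes up the most of its sum. No count in BN1 was found for 3 of 10 NK cell and 3 of 9 megakaryocyte markers. The same held for 2 of 9 eosinophil, basophil and mast cell and 1 of 6 stroma and endothelium markers. These included Klrd1, Gzma, Eomes, Pf4, Ppbp, Prg2, Fcer1a and Kdr. These lists move with the families described next, and their part in each result was not tested. Nor was the part of the CD45.2+ sort in which cells were measured.

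The Gimap genes encode GTPases of lymphocytes that sit in 1 cluster and support the survival of those cells. Between WT and BN1, all 8 tested members were past the filter level in WT alone, and so had to be lower. Their summed level was 398 to 429 CPM in the WT libraries and 0.405 to 0.574 CPM in the BN1 libraries. The cluster spans 124 kb of chromosome 6 (mm10), from 48647186 to 48770851. Gimap3 stood at 104, 103 and 110.3 CPM in WT and 0.0411, 0.0450 and 0.0766 CPM in BN1 (log2 fold change -10.76 ± 0.19). Gimap6 stood at 84.2, 88.5 and 101 CPM in WT and 0.123, 0.135 and 0 CPM in BN1 (log2 fold change -10.01 ± 0.20). Gimap4 stood at 65.8, 65.5 and 67.4 CPM in WT and 0.0411, 0 and 0.345 CPM in BN1 (log2 fold change -8.85 ± 0.25), and every WT library was far above every BN1 library for all 8 genes. Gimap5 had 16.4 ± 0.505 CPM in WT and no count in BN1 (at least 398-fold lower), and Gimap8 had a single count there (3934-fold lower, counting interval 706 to 155450.0). Gimap1 (-9.85 ± 0.25), Gimap7 (698-fold lower, counting interval 125 to 27625) and Gimap9 (-7.43 ± 0.23) completed the set. Gimap9 differed from its neighbours in the MLL leukemias, where it stood at 8.12 ± 0.436 CPM in MA9 and 6.23 ± 1.02 CPM in ME, and BN1 was lower than their mean (log2 fold change -5.78 ± 0.25). Adjusted p in edgeR for the 8 genes in BN1 against WT ran from 8.4e-27 to 4.7e-16, values favoured by that class of genes.

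The 250 bases before the start of 6 genes that were high in WT and at or near 0 in BN1 are shown next, from RefSeq's table for GRCm38.p6, 5′ to 3′ on the gene's strand. The first 3 are Gimap genes and the other 3 are genes of the red cell lineage, namely Epb42, a protein of the membrane skeleton, Trim10, a ubiquitin ligase, and Btnl10, a butyrophilin-like gene. Capitals mark matches, on either strand, to 4 short motifs that are textbook binding letters of blood cell factors: AGGAAG for Ets factors, TGTGGT for Runx, CTTTGA for Tcf/Lef and AGATAA for GATA factors.
Gimap3, chr6:48770852-48771101, minus strand: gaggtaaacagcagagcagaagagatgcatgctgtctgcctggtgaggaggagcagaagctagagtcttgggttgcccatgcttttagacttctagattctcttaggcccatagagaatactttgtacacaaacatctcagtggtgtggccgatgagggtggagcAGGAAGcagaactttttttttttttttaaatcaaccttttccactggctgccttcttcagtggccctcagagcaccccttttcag
Gimap4, chr6:48684328-48684577, plus strand: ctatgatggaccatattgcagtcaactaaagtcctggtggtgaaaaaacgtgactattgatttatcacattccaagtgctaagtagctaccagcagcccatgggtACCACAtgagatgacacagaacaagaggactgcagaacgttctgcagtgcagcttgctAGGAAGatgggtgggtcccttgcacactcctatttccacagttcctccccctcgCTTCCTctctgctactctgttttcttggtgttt
Gimap5, chr6:48745947-48746196, plus strand: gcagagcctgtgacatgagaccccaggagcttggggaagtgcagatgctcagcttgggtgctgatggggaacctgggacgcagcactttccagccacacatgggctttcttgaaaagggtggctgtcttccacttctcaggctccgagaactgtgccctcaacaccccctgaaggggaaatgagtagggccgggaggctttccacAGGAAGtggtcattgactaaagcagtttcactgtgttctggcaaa
Epb42, chr2:121036878-121037127, minus strand: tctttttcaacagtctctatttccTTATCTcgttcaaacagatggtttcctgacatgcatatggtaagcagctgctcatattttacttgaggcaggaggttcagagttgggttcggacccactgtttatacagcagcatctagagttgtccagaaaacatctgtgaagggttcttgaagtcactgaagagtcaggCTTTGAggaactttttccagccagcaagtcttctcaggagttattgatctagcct
Trim10, chr17:36869324-36869573, plus strand: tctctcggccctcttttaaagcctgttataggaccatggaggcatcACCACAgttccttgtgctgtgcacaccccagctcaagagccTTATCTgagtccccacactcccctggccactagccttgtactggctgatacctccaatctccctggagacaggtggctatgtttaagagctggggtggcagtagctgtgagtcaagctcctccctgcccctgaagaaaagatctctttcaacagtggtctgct
Btnl10, chr11:58917658-58917907, plus strand: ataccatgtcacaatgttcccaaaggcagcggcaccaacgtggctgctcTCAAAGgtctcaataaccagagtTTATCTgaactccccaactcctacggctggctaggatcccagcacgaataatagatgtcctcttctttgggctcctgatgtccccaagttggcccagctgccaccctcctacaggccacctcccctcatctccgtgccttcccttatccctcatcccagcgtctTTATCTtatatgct

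An Ets match was present in 6 of the 8 Gimap windows and a Runx match in 3, and none held a Tcf/Lef or GATA match. Over the 278 genes with a RefSeq window that fell from 5 CPM or more to under 1%, 31.3% held the Ets letters, 18.7% the Runx letters, 15.1% the Tcf/Lef letters and 15.8% the GATA letters. Over the 6015 genes that stayed between 50% and 200%, the shares were 28.1%, 10.9%, 10.7% and 5.24%. Over all 27025 windows used they were 29.2%, 14.2%, 14% and 10.3%. For the 11232 tested genes with a window they were 29.2%, 11.7%, 11.3% and 6.47%. Chromosome 18 was left out of all these sets, and the first listed start of each gene was taken. A match is a description of letters and not a binding site, and the classes were set by the same expression values. The windows printed above are chosen examples, and their matches do not stand for a class.

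Receptors by which lymphocytes and myeloid cells read their neighbours were lower in most surface families. Killer lectins, the receptors of natural killer cells encoded side by side on chromosome 6, fell in 17 of 17 tested genes of 22 in the table, and 10 of them had no count in BN1. Only 2 of the 17 were past the filter level in both groups, and the 15 past it in WT and not in BN1 had to be lower. Klrd1, the shared partner chain of several of these receptors, stood at 19.1, 15.3 and 19.2 CPM in WT, with no count in any BN1 library (at least 435-fold lower). Klra7 (at least 228-fold lower) and Klri2 (at least 179.9-fold lower) had no count in BN1 either, whereas Klra2 stayed at 61.1 ± 6.25 CPM against 84.1 ± 7.87 CPM and made up most of the summed level of 56.2 to 68.4 CPM. Members of this family are close copies of each other, so the split of counts among them is uncertain. SLAM receptors, which bind their own kind on the neighbouring immune cell, fell in 10 and rose in none of 11 tested genes (12 in the table; in both, 6 lower and 0 higher of 7). Slamf7, found on plasma and killer cells, stood at 36.1 ± 1.70 CPM in WT and 0.287 ± 0.0511 CPM in BN1. Slamf6 of T and B cells stood at 46.8 ± 0.611 CPM in WT and 0.884 ± 0.0538 CPM in BN1. Cd48, the ligand of Cd244, stood at 77.2 ± 3.18 CPM in WT and 78.4 ± 6.08 CPM in BN1 and was not called, while Cd244 itself fell (log2 fold change -2.35 ± 0.14).

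The family of butyrophilins and costimulators fell in 14 and rose in 2 of 16 tested genes (21 in the table; in both, 7 lower and 2 higher of 9). The rises took in a gene that only shares the symbol. Btnl10 stood at 113, 119 and 118 CPM in WT, with no count in any BN1 library (at least 2826-fold lower). Btla, an inhibitory receptor of lymphocytes, stood at 121, 112 and 118 CPM in WT and 1.23, 0.855 and 0.728 CPM in BN1 (log2 fold change -6.96 ± 0.11). Cd274, the ligand PD-L1 that restrains T cells, rose instead, from 14.9 ± 0.478 CPM to 31.3 ± 1.31 CPM, with no overlap of the groups. Paired immunoglobulin-like receptors fell in 14 and rose in 3 of 17 tested genes (17 in the table; in both, 13 lower and 3 higher of 16). Lilra6 stood at 94.1 ± 5.20 CPM in WT and 7.11 ± 0.779 CPM in BN1 and the inhibitory receptor Lilr4b at 411 ± 37.9 CPM in WT and 48.8 ± 0.272 CPM in BN1. Trem1, an amplifier of neutrophil activation, fell (log2 fold change -2.35 ± 0.07). The inhibitory collagen receptor Lair1 rose (log2 fold change 1.16 ± 0.07), as did Trem2 of macrophages (log2 fold change 0.93 ± 0.14). Among tetraspanins, which arrange other membrane proteins into patches, 16 fell and 4 rose of 23 tested and 27 in the table (in both, 10 lower and 4 higher of 15). Tspan33, a regulator of red cell formation, stood at 113, 129 and 129 CPM in WT, with no count in any BN1 library (at least 2988-fold lower), Tspan13 at 88.5 ± 2.81 CPM in WT with no count in BN1 (at least 2147-fold lower). Tspan31 rose (log2 fold change 1.39 ± 0.07). Adjusted p of the genes named here and in the preceding paragraph on surface receptors ran from 9.0e-28 to 6.6e-06, Cd48 left out.

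Smaller myeloid surface families were mixed. In the Ms4a family 7 fell and 3 rose of 11 tested and 19 in the table (in both, 6 lower and 3 higher of 10), with the B cell antigen Ms4a1 (CD20) near 0 at 90.5 ± 5.68 CPM in WT and 0.0450 ± 0.0779 CPM in BN1 and Ms4a3, a marker of granulocyte and monocyte precursors, up at 37.4 ± 4.92 CPM in WT and 484 ± 15.4 CPM in BN1. In the Ly6 family 8 fell and 3 rose of 11 tested and 20 in the table (in both, 5 lower and 2 higher of 7), Ly6d of B cell precursors standing at 94.7 ± 5.50 CPM in WT and 0.0415 ± 0.00335 CPM in BN1, the neutrophil antigen Ly6g at 199 ± 14.9 CPM in WT and 5.23 ± 0.536 CPM in BN1 and Ly6c1 at 26.8 ± 19.3 CPM in WT and 208 ± 26.4 CPM in BN1. CD300 receptors and C-type lectins had medians whose sign turned with library size alone as the scaling. For CD300 receptors the sign also turned with upper-quartile scaling, from -0.014 to 0.026. C-type lectins counted 10 lower and 8 higher of 25 tested (in both, 6 lower and 4 higher of 15). Clec9a of cross-presenting dendritic cells fell (log2 fold change -6.15 ± 0.25), as did the fungal sensor Clec7a (log2 fold change -2.50 ± 0.09). Clec11a, a secreted growth factor of blood and bone progenitors, had the largest rise of that family, at 0.697, 0.450 and 0.827 CPM in WT and 240.5, 232 and 266 CPM in BN1 (log2 fold change 8.53 ± 0.11). Adjusted p ran from 3.2e-30 to 6.1e-04.

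Genes of antigen receptor signalling fell in most members, several of those used by lymphocytes to near 0. On the list of 37 tested genes of this pathway 30 fell and 4 rose, and 20 fell and 4 rose of the 27 above the filter level in both groups, against 36.3% and 43.5% of all such genes. At the top of the cascade stand kinases of the Src, Syk and Tec groups. On the Src family list, which also takes in Csk and Matk, all 10 tested members fell (in both, 6 lower and 0 higher of 6). On the list of Tec, Syk, Janus and other kinases 11 of 15 fell and 3 rose (in both, 7 lower and 3 higher of 11). Blk of B cells stood at 61.8, 66.2 and 70.2 CPM in WT and 0, 0.0450 and 0 CPM in BN1 (4789-fold lower, counting interval 859 to 189225). Lck of T cells stood at 40.8, 41.8 and 46.8 CPM in WT and 0.123, 0 and 0.191 CPM in BN1 (log2 fold change -8.54 ± 0.29). Fyn stood at 79.3 ± 3.88 CPM in WT and 3.33 ± 0.786 CPM in BN1. The Src kinases of myeloid cells were lowered and not lost, with Fgr at 342 ± 3.20 CPM in WT and 126 ± 5.27 CPM in BN1 and Lyn at 388 ± 8.21 CPM in WT and 326 ± 4.94 CPM in BN1. Csk, which switches the family off, stood at 326 ± 11.9 CPM in WT and 147 ± 5.42 CPM in BN1. Matk (-2.09 ± 0.11), Src (-2.11 ± 0.44) and Yes1 (61.0-fold lower, counting interval 10.4 to 2459) were low in WT and lower in BN1. For all 10 tested members each WT library lay above each BN1 library.

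Zap70, which binds the T cell receptor, stood at 15.2, 15.8 and 15.9 CPM in WT, with no count in any BN1 library (at least 378-fold lower). Its counterpart Syk, used by B cells and myeloid cells, stood at 663, 652 and 669.8 CPM in WT and 247, 247 and 240.2 CPM in BN1 (log2 fold change -1.43 ± 0.04), so 1 paralogue had no count and the other was lowered. The same division ran through the Tec kinases, where Txk of T cells stood at 9.85 ± 0.342 CPM in WT and 0.0877 ± 0.120 CPM in BN1, Tec at 47.4 ± 1.24 CPM in WT and 22.2 ± 1.5 CPM in BN1 and Bmx at 72.5 ± 5.92 CPM in WT and 20.7 ± 2.51 CPM in BN1, while Btk, used by B cells and myeloid cells, was slightly higher in BN1 (114 ± 0.478 CPM in WT and 126 ± 7.35 CPM in BN1), a call lost with RLE scaling (adjusted p = 0.094) and without BN1 replicate 2 (0.064). Among Janus kinases, which serve cytokine receptors, Jak1 (-0.81 ± 0.04) and Jak2 (-1.21 ± 0.06) fell, Jak3 rose (0.36 ± 0.07) and Tyk2 was not called (120.0 ± 4.95 CPM in WT and 119 ± 4.24 CPM in BN1). The remaining kinases of that list were Fes (-0.42 ± 0.05), Ptk2 (-3.32 ± 0.35), Ptk2b (-1.39 ± 0.04) and Fer, which rose (1.0 ± 0.10).

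Of the adaptors that receive these kinases' signals, Blnk of B cells stood at 78.2, 79.4 and 79.3 CPM in WT and 0.123, 0.0900 and 0 CPM in BN1 (log2 fold change -10.04 ± 0.20), Lat of T cells at 21.9 ± 0.601 CPM in WT and 0.747 ± 0.191 CPM in BN1 and Sh2d2a at 18.6 ± 1.32 CPM in WT and 0.0265 ± 0.0230 CPM in BN1, while Lcp2, shared with myeloid cells, stood at 143 ± 5.28 CPM in WT and 139 ± 3.18 CPM in BN1 and was not called. The exchange factor Rasgrp1, which turns on Ras in lymphocytes, fell (log2 fold change -7.51 ± 0.29). Protein kinases C and D, activated by the lipid diacylglycerol, fell in 10 and rose in 1 of 11 tested genes (12 in the table; in both, 7 lower and 1 higher of 8). The T cell isoform Prkcq stood at 17.5 ± 0.160 CPM in WT and 0.0274 ± 0.0475 CPM in BN1 (636-fold lower, counting interval 176 to 5263) and Prkca at 22.6 ± 3.32 CPM in WT and 0.536 ± 0.322 CPM in BN1. Prkci, an isoform of cell polarity, rose (25.9 ± 0.897 CPM in WT and 92.7 ± 4.69 CPM in BN1). In the calcium branch, calmodulin kinases fell in 12 and rose in 3 of 16 tested genes (16 in the table; in both, 5 lower and 3 higher of 9). The 2 broad isoforms went apart, Camk2d falling from 60.0 ± 1.38 CPM to 2 counts (2179-fold lower, counting interval 603 to 18003) and Camk2g standing at 72.9 ± 0.221 CPM in WT and 85.6 ± 2.92 CPM in BN1. The calcium channel Orai1 of the plasma membrane rose (log2 fold change 0.57 ± 0.08), as did its sensor Stim2 (log2 fold change 0.18 ± 0.06), whose call was lost with RLE scaling (adjusted p = 0.056).

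Of 25 tested genes of the NF-kB pathway 17 fell and 5 rose (in both, 16 lower and 5 higher of 24). The inhibitors Nfkbiz (log2 fold change -2.15 ± 0.10) and Nfkbie (log2 fold change -1.69 ± 0.09) fell, as did the adaptor Traf1 (log2 fold change -4.27 ± 0.18), and the factor Rel was not called at 25.3 ± 0.185 CPM in WT and 23.4 ± 1.5 CPM in BN1. Chuk, the kinase IKK-alpha, stood at 79.6, 67.4 and 71.0 CPM in WT and 299.7, 301 and 265 CPM in BN1 (log2 fold change 1.99 ± 0.07), with MA9 and ME near WT at 74.1 ± 6.64 CPM in MA9 and 78.3 ± 6.09 CPM in ME. Ikbke (log2 fold change 1.98 ± 0.06) and Map3k7 (log2 fold change 1.35 ± 0.05), 2 more kinases of the pathway, rose. Adjusted p of the called genes in these 4 paragraphs on signalling ran from 5.3e-26 to 0.011.

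In the membrane skeleton of red cells, a lattice of spectrin tied to the membrane by ankyrin and adducin, several red cell members stood near 0 in BN1, and many members used by other cells were present at higher or lower levels. Of 31 tested genes 23 fell and 5 rose (in both, 12 lower and 4 higher of 18). Sptan1, an alpha spectrin of many cell types, stood at 276, 289.7 and 293 CPM in WT and 328, 337 and 347 CPM in BN1 (log2 fold change 0.24 ± 0.05). Beta spectrin of red cells (Sptb) stood at 282, 327 and 314 CPM in WT and 2.63, 1.62 and 1.46 CPM in BN1 (log2 fold change -7.33 ± 0.12), against a rise of Sptbn1 (276 ± 5.0 CPM in WT and 423 ± 1.16 CPM in BN1). The groups did not overlap for any of these genes.

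The anchors also differed. Ank1, which ties spectrin to the anion exchanger, stood at 248 ± 15.5 CPM in WT and 0.0979 ± 0.0322 CPM in BN1 (log2 fold change -11.24 ± 0.16). Epb42 stood at 110.0 ± 5.44 CPM in WT and 0.0128 ± 0.0221 CPM in BN1 (7979-fold lower, counting interval 1432 to 315205). Add2, an adducin that caps the actin of the lattice, stood at 93.2, 103 and 108 CPM in WT, with no count in any BN1 library (at least 2445-fold lower), while Add1 (399 ± 7.03 CPM in WT and 131 ± 1.98 CPM in BN1) and Add3 (363 ± 19.9 CPM in WT and 133 ± 4.44 CPM in BN1) were lowered and not lost. Dmtn (-7.58 ± 0.18), Tmod1 (-8.12 ± 0.29) and Epb41l4b (at least 344-fold lower) fell as well. Epb41, which joins spectrin to actin, fell to 104 ± 5.10 CPM from 409.9 ± 36.2 CPM. The tropomodulin of other cells, Tmod3, fell by less (-0.63 ± 0.05), Tpm1 (-2.58 ± 0.10) and Tpm4 (-1.29 ± 0.05) fell among tropomyosins, and Tpm3 was nearly level (-0.10 ± 0.04), its sign turned with library size alone and its call was lost when a library other than WT replicate 3, ME replicate 2 or ME replicate 3 was left out. The linkers of membrane and actin split, with Ezr (-0.96 ± 0.05) and Msn (-0.76 ± 0.04) lower and Rdx not called (130.3 ± 6.58 CPM in WT and 139 ± 7.25 CPM in BN1). Mpp1, a red cell palmitoylated protein, stood slightly higher in BN1 (141 ± 4.85 CPM in WT and 156 ± 3.38 CPM in BN1), a call lost with RLE scaling (adjusted p = 0.095) and without WT replicate 3 (0.07).

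Channels and enzymes of gas and water exchange fell with the lattice. Slc4a1, the anion exchanger that swaps bicarbonate for chloride, stood at 1511, 1693 and 1678 CPM in WT and 0.617, 0.315 and 0.0766 CPM in BN1 (log2 fold change -12.24 ± 0.18). Aqp1, the water channel of red cells, stood at 302, 331 and 331 CPM in WT and 0.411, 0.315 and 0.536 CPM in BN1 (log2 fold change -9.54 ± 0.11). Of 4 tested aquaporins 3 fell (in both, 1 lower and 0 higher of 1), including the glycerol channel Aqp9 of neutrophils (48.9 ± 3.44 CPM in WT and 3.07 ± 0.378 CPM in BN1). Carbonic anhydrases, which hydrate carbon dioxide, fell in 4 and rose in 3 of 9 tested (in both, 0 lower and 3 higher of 4). Car1 stood at 97.7, 108 and 106 CPM in WT, with no count in any BN1 library (at least 2507-fold lower). Car2 stood at 655, 742 and 722 CPM in WT and 0.247, 0.225 and 0.306 CPM in BN1 (log2 fold change -11.37 ± 0.17). Car13 (3.62 ± 0.704 CPM in WT and 10.5 ± 0.808 CPM in BN1), the muscle-type Car3 (0.794 ± 0.224 CPM in WT and 9.36 ± 1.92 CPM in BN1) and the hypoxia-induced Car9 (3.68 ± 0.719 CPM in WT and 13.1 ± 1.38 CPM in BN1) rose at low levels, and MA9 and ME held Car3 at 0.250 ± 0.135 CPM in MA9 and 0.623 ± 0.0973 CPM in ME. Car12 (48.0-fold lower, counting interval 8.10 to 1947) and Car15 (-2.64 ± 0.29) fell, and Car5b and Car7 were not called. Kel, a blood group peptidase, stood at 142 ± 4.35 CPM in WT and 0.0128 ± 0.0221 CPM in BN1 (10329-fold lower, counting interval 1853 to 408024). Adjusted p of the called genes in these paragraphs on the red cell ran from 2.5e-31 to 0.037.

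**Figure D2:**
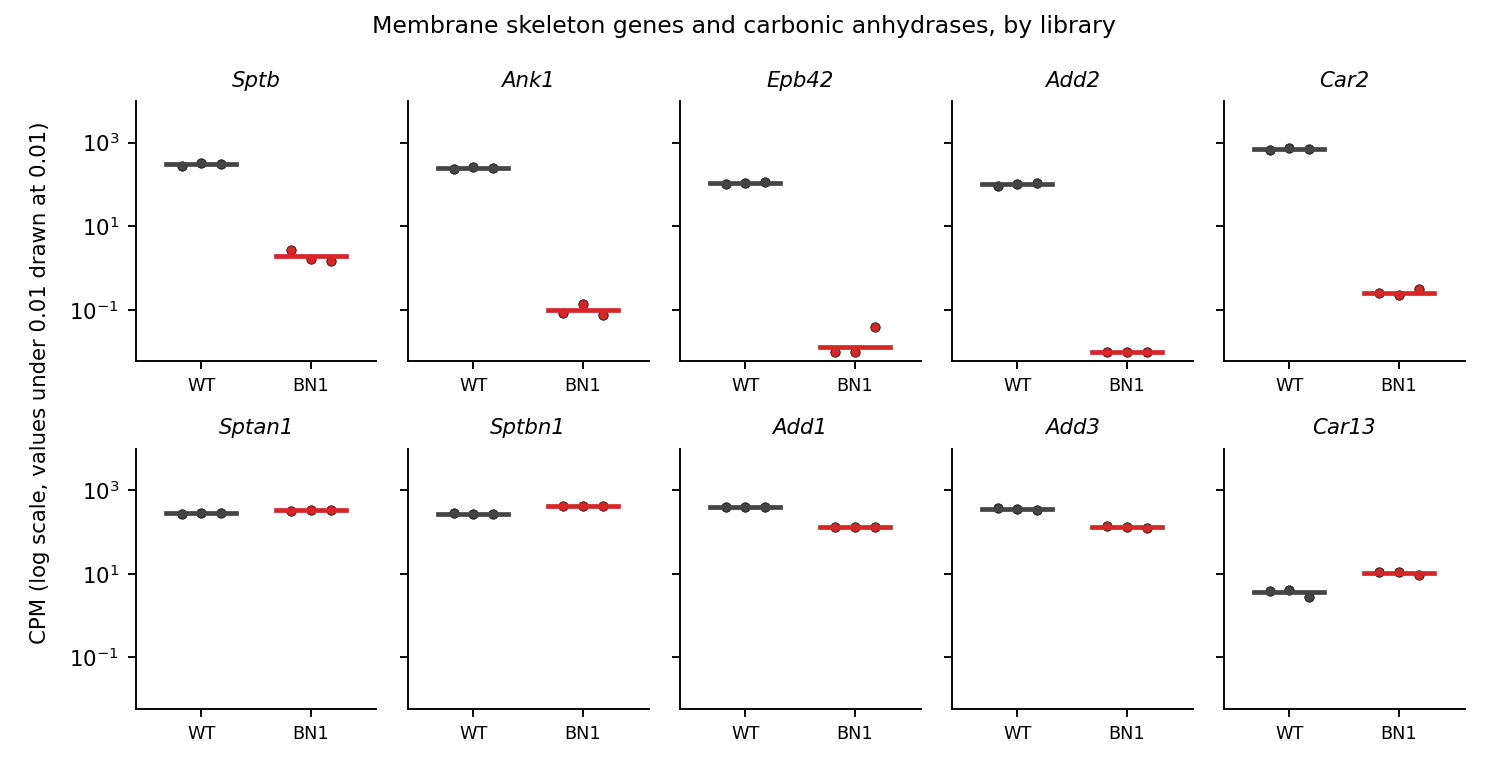
CPM (log scale) of 5 red cell genes in the upper row and 5 paralogues in the lower row, in the 3 WT and 3 BN1 libraries, with points for libraries and bars for group means. The upper row falls by 100-fold or more in BN1, and the lower row stays within the range of about 3-fold.

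Signals that cells send each other through cytokines and death receptors were lower in most families. TNF ligands fell in 10 and rose in 2 of 12 tested genes (19 in the table; in both, 5 lower and 2 higher of 7). Ltb, the lymphotoxin that lymphocytes use to shape lymphoid tissue, stood at 114 ± 9.78 CPM in WT and 4.08 ± 0.669 CPM in BN1. Tnfsf14 stood at 41.1 ± 2.81 CPM in WT and 7.54 ± 0.139 CPM in BN1. Tnfsf13b (BAFF), the survival factor of B cells, fell (log2 fold change -1.73 ± 0.10), while the related Tnfsf13 (APRIL) rose (log2 fold change 1.73 ± 0.14). Tnfrsf13c, the BAFF receptor, stood at 49.6, 44.5 and 52.6 CPM in WT, with no count in any BN1 library (at least 1186-fold lower). Over TNF receptors 14 fell and 9 rose of 23 tested and 26 in the table (in both, 9 lower and 8 higher of 17). Cd27 fell (log2 fold change -3.12 ± 0.18) and Tnfrsf1b, the inducible receptor for TNF, rose (195 ± 4.64 CPM in WT and 369 ± 7.18 CPM in BN1). Of 9 interleukin genes tested 7 fell (in both, 5 lower and 1 higher of 7). Il1b, the main inflammatory interleukin of myeloid cells, stood at 58.7, 54.1 and 58.9 CPM in WT and 0.453, 0.225 and 0.460 CPM in BN1 (log2 fold change -7.19 ± 0.16), and its natural antagonist Il1rn fell as well (70.5 ± 5.78 CPM in WT and 16.6 ± 1.06 CPM in BN1). Il12a alone of them rose (12.3 ± 0.938 CPM in WT and 71.9 ± 2.95 CPM in BN1).

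Sensors and GTPases of innate immunity differed by family. The Ifi200 family of DNA sensors fell in 8 of 8 (in both, 7 lower and 0 higher of 7), led by Pydc3 (log2 fold change -4.66 ± 0.22), Pydc4 (log2 fold change -3.12 ± 0.09) and Ifi203 (log2 fold change -2.14 ± 0.08), and these genes are similar in sequence. Guanylate-binding proteins and immunity-related GTPases fell in 10 and rose in 3 of 17 tested genes (17 in the table; in both, 7 lower and 3 higher of 14). Gbp8 (log2 fold change -7.11 ± 0.37) and Gbp4 (log2 fold change -6.87 ± 0.21) fell, and Gbp5 (10.9 ± 1.13 CPM in WT and 52.1 ± 2.48 CPM in BN1) and Gbp3 (28.2 ± 2.89 CPM in WT and 89.7 ± 2.78 CPM in BN1) rose. Schlafen genes fell in 7 and rose in 1 of 8 tested genes (8 in the table; in both, 6 lower and 1 higher of 7). Slfn14, a ribosome-associated nuclease of reticulocytes and platelets, stood at 51.5, 60.2 and 63.0 CPM in WT, with no count in any BN1 library (at least 1404-fold lower). Slfn9 rose (31.6 ± 4.22 CPM in WT and 144 ± 3.20 CPM in BN1). Inflammasome and NLR genes counted 7 lower and 8 higher of 19 (in both, 5 lower and 8 higher of 16). Ciita, the switch for MHC class II genes, stood at 58.4 ± 2.81 CPM in WT and 0.230 ± 0.0832 CPM in BN1. Mefv, the pyrin sensor of myeloid cells, rose (52.1 ± 3.49 CPM in WT and 195 ± 2.88 CPM in BN1). Caspases and gasdermins were close to even, 3 lower and 2 higher of 9, and their balance turned with upper-quartile scaling. Adjusted p in these paragraphs on cytokines and sensors ran from 4.2e-25 to 9.9e-12.

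Receptors coupled to G proteins fell in more members than rose in each of 4 groups tested, but among receptors past the filter level in both groups the Gpr group was nearly even. Receptors for lipids and peptides fell in 20 and rose in 5 of 28 tested genes (41 in the table; in both, 13 lower and 5 higher of 20). The sphingosine phosphate receptors went apart. S1pr1, which lets lymphocytes leave tissue, stood at 34, 36.2 and 37.7 CPM in WT, with no count in any BN1 library (at least 869-fold lower). S1pr4 stood at 132 ± 5.70 CPM in WT and 11.1 ± 1.62 CPM in BN1, whereas S1pr2 (15.1 ± 0.424 CPM in WT and 31.7 ± 1.70 CPM in BN1) and S1pr3 (4.32 ± 0.742 CPM in WT and 17.7 ± 0.511 CPM in BN1) rose, and S1pr5 was not called (15.2 ± 1.51 CPM in WT and 15.5 ± 1.61 CPM in BN1). Tbxa2r, the thromboxane receptor of platelets, had no count in BN1 (at least 205-fold lower), and Ptger4 for prostaglandin E fell (log2 fold change -3.66 ± 0.14). Cysltr1, a receptor for cysteinyl leukotrienes, rose (log2 fold change 1.72 ± 0.13). Receptors for nucleotides fell in 8 and rose in 3 of 14 (in both, 5 lower and 3 higher of 11). P2ry10 of lymphocytes stood at 18.7, 16.5 and 18.6 CPM in WT, with no count in any BN1 library (at least 435-fold lower). P2ry14 (435-fold lower, counting interval 77.5 to 17220.3) and P2ry13 (log2 fold change -4.73 ± 0.19) fell too.

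Among receptors numbered Gpr, 20 of 35 fell and 13 rose (in both, 10 lower and 9 higher of 21). Gpr171 of lymphocytes stood at 20 ± 1.84 CPM in WT, with no count in BN1 (at least 482-fold lower) and Gpr174 at 14.4 ± 1.69 CPM in WT and 0.0137 ± 0.0238 CPM in BN1. Gpr119, a receptor for lipid amides best known in gut and pancreas, ran the other way, with no count in WT and 28.4 ± 2.95 CPM in BN1 (at least 527-fold higher), and Gpr55 stood at 1.29, 0.957 and 0.882 CPM in WT and 39.8, 43.1 and 42.8 CPM in BN1 (log2 fold change 5.31 ± 0.18). Adhesion receptors fell in 12 and rose in 5 of 18 tested genes (27 in the table; in both, 6 lower and 2 higher of 9). Adgrl2 was without a count in BN1 (at least 168-fold lower), and Adgre1, the F4/80 antigen of macrophages, was slightly higher (0.36 ± 0.05). RGS proteins, which end the signal, fell in 10 and rose in 3 of 14 (in both, 6 lower and 2 higher of 8). Rgs3 fell (log2 fold change -3.64 ± 0.10) and Rgs9 rose (0.374 ± 0.275 CPM in WT and 9.49 ± 1.11 CPM in BN1). G protein subunits and phosphodiesterases were near even, and their medians changed sign with the scaling. Within the phosphodiesterases the cyclic AMP enzymes Pde4b (45.8 ± 1.66 CPM in WT and 3.91 ± 0.349 CPM in BN1) and Pde4d (15.1 ± 1.09 CPM in WT and 85.1 ± 4.47 CPM in BN1) moved in opposite directions. Adjusted p of called genes ran from 3.2e-24 to 5.6e-07.

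Ion channels and solute carriers were mixed at the level of families, with single genes lost. Potassium channel subunits fell in 17 and rose in 9 of 34 tested genes (92 in the table; in both, 5 lower and 6 higher of 14). Kcnn4, the calcium-gated channel of red cells and lymphocytes, stood at 73.2, 86.0 and 81.6 CPM in WT and 1.11, 1.62 and 1.11 CPM in BN1 (log2 fold change -5.98 ± 0.12). Kcna3 of T cells stood at 11.5 ± 0.504 CPM in WT and 0.0788 ± 0.10 CPM in BN1. Kcnk12 (10.5 ± 1.78 CPM in WT and 113 ± 12.4 CPM in BN1) and Kcnip3 (3.85 ± 0.120 CPM in WT and 73.7 ± 5.99 CPM in BN1), genes best known in brain, rose. Subunits of calcium channels fell in 8 and rose in 5 of 15 tested genes (26 in the table; in both, 1 lower and 4 higher of 7), and they went apart by gene. Cacna1i (at least 518-fold lower), Cacna1g (at least 323-fold lower) and Cacna1h (at least 127-fold lower), which form all T-type channels, had no count in BN1. Cacna1b, an N-type channel of nerve endings, stood at 0.996, 0.732 and 0.827 CPM in WT and 57.7, 52.8 and 58.4 CPM in BN1 (log2 fold change 6.03 ± 0.12), and MA9 and ME were high too (101 ± 2.42 CPM in MA9 and 55.9 ± 4.27 CPM in ME). Mcoln2 of the lysosome had no count in BN1 (at least 269-fold lower).

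Amino acid carriers fell in 18 and rose in 10 of 33 tested genes (60 in the table; in both, 13 lower and 9 higher of 25). The falls included Slc38a5 (2683-fold lower, counting interval 481 to 106042), Slc43a1 (log2 fold change -6.74 ± 0.13) and the glycine carrier Slc6a9 of red cell precursors (log2 fold change -5.83 ± 0.17). The lysosomal exporter Slc36a1 rose (70.0 ± 3.13 CPM in WT and 245 ± 4.92 CPM in BN1). Among glucose carriers the insulin-regulated Slc2a4 stood at 15.8 ± 2.40 CPM in WT, with no count in BN1, and the high-affinity Slc2a3 at 420.0, 390.3 and 387 CPM in WT and 18.6, 16.5 and 16.9 CPM in BN1 (log2 fold change -4.53 ± 0.07). Slc2a9 rose (log2 fold change 1.63 ± 0.08). Slc40a1 (ferroportin), the iron exporter, fell (140.1 ± 9.56 CPM in WT and 3.10 ± 0.447 CPM in BN1). Iron genes as a list fell in 13 and rose in 8 of 24 tested genes (27 in the table; in both, 11 lower and 7 higher of 21). Slc46a1, a carrier of folate and heme, rose (0.697 ± 0.165 CPM in WT and 10.6 ± 0.901 CPM in BN1), as did the uptake regulator Hfe (17.8 ± 0.624 CPM in WT and 126 ± 2.34 CPM in BN1) and the iron-sensing Ireb2 (101 ± 7.32 CPM in WT and 281 ± 15.8 CPM in BN1). Slc25a37 (mitoferrin), which brings iron into mitochondria, fell (639 ± 19.5 CPM in WT and 102 ± 5.74 CPM in BN1). Slc25a4, the nucleotide exchanger, rose (51.5 ± 1.19 CPM in WT and 186 ± 2.81 CPM in BN1). Of the sodium pump, the beta subunit Atp1b1 stood at 108, 105 and 114 CPM in WT and 0.165, 0.135 and 0.536 CPM in BN1 (log2 fold change -8.53 ± 0.15). P-type ATPases as a family fell in 16 and rose in 9 of 29 tested genes (41 in the table; in both, 12 lower and 9 higher of 22). Abcb4, an exporter of phospholipid, stood at 68.5 ± 5.86 CPM in WT and 0.0411 ± 0.0713 CPM in BN1. Subunits of the V-ATPase that acidifies lysosomes rose in 8 and fell in 6 of 15, with Atp6v0a1 down (132 ± 0.484 CPM in WT and 12.7 ± 0.809 CPM in BN1) and Atp6v1a up (132 ± 13.6 CPM in WT and 278 ± 11 CPM in BN1). Adjusted p of the genes named here and in the paragraph before ran from 1.1e-28 to 3.9e-12.

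Cytoskeletal regulators were lower in most families. Formins, WASP proteins and their partners, which assemble actin, fell in 24 and rose in 6 of 37 tested genes (41 in the table; in both, 20 lower and 6 higher of 33). Fmnl2 stood at 51.6 ± 1.38 CPM in WT and 0.149 ± 0.0526 CPM in BN1, and the coronin Coro2a at 97.1 ± 3.65 CPM in WT and 2.71 ± 0.285 CPM in BN1. The 6 rises of this list were small, up to a log2 fold change of 0.50 ± 0.05 for Cyfip1, and none of them held against a minimum change of 1.5-fold. Myosins fell in 21 and rose in 5 of 31 (in both, 12 lower and 5 higher of 20). The atrial light chain Myl4, also made in red cell precursors, stood at 31.1 ± 2.02 CPM in WT and 0.0520 ± 0.0582 CPM in BN1, Myh10 at 49.5 ± 2.15 CPM in WT and 0.478 ± 0.199 CPM in BN1 and Myo1e at 27.2 ± 2.74 CPM in WT and 0.246 ± 0.0759 CPM in BN1. Myo18b, known from muscle, stood at 0.996, 1.13 and 0.717 CPM in WT and 156, 148 and 161 CPM in BN1 (log2 fold change 7.35 ± 0.12), with 331 ± 22.0 CPM in MA9 and 0.708 ± 0.366 CPM in ME. Myo7a, a motor of sensory cells, rose (42.7 ± 1.68 CPM in WT and 169 ± 3.99 CPM in BN1). Septins, GTP-binding filament proteins, counted 6 lower and 4 higher of 10 (in both, 5 lower and 4 higher of 9). Sept1 of lymphocytes stood at 147, 168 and 182 CPM in WT and 3.87, 4.72 and 5.48 CPM in BN1 (log2 fold change -5.13 ± 0.11), Sept8 at 57.5 ± 3.31 CPM in WT and 0.886 ± 0.190 CPM in BN1 and Sept5 at 122 ± 6.16 CPM in WT and 15.1 ± 1.25 CPM in BN1, while Sept9 (324 ± 11.9 CPM in WT and 525 ± 4.93 CPM in BN1), Sept2 (0.47 ± 0.05) and Sept10 (1.71 ± 0.11) rose.

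Tubulins and their partners fell in 14 and rose in 4 of 22 tested genes (25 in the table; in both, 11 lower and 4 higher of 18). Tubb2b (log2 fold change -3.95 ± 0.17) and Tubb2a (log2 fold change -2.78 ± 0.11) fell, and the nucleation protein Tubgcp5 rose (32.1 ± 1.27 CPM in WT and 106 ± 2.25 CPM in BN1). Kinesins fell in 18 and rose in 11 of 32 (in both, 15 lower and 11 higher of 27). Kif21b of lymphocytes fell (427 ± 18.1 CPM in WT and 72.9 ± 3.45 CPM in BN1), as did the division motors Kif18b (log2 fold change -1.63 ± 0.06) and Kif23 (log2 fold change -1.57 ± 0.06). The organelle carrier Kif1b rose (76.1 ± 3.14 CPM in WT and 399.6 ± 7.73 CPM in BN1). Arhgef genes and related exchange factors of small GTPases fell in 25 and rose in 12 of 38 tested genes (46 in the table; in both, 20 lower and 9 higher of 30). Plekhg4 ran against its family at 0.0996, 0.225 and 0.0551 CPM in WT and 43.4, 36.8 and 44.1 CPM in BN1 (log2 fold change 8.31 ± 0.23), with every BN1 library above every WT library. Arhgef28 rose too (0.878 ± 0.102 CPM in WT and 28.4 ± 2.01 CPM in BN1). Arhgap genes, which switch such GTPases off, fell in 17 and rose in 6 of 26 tested genes (32 in the table; in both, 15 lower and 5 higher of 23). Exocytosis genes fell in 24 and rose in 8 of 37 (in both, 18 lower and 7 higher of 30). Sytl1, a tether of secretory granules, fell (23.6 ± 0.828 CPM in WT and 0.370 ± 0.0496 CPM in BN1), and Anxa1, a membrane-binding regulator of inflammation, stood at 1854, 1798 and 1829 CPM in WT and 168, 188 and 175 CPM in BN1 (log2 fold change -3.37 ± 0.05). Myof, a membrane repair protein, rose (16.3 ± 1.11 CPM in WT and 151 ± 2.26 CPM in BN1). Adjusted p in these paragraphs on the cytoskeleton ran from 1.9e-28 to 6.0e-09.

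Most transcription factor families tested fell in more members than rose, with nuclear receptors and Zfp genes the other way. The Nfat, Tcf/Lef and T-box group fell in 9 and rose in 1 of 12 tested genes (15 in the table; in both, 3 lower and 1 higher of 5). Lef1 stood at 32, 32 and 32.7 CPM in WT, with no count in any BN1 library (at least 781-fold lower). Tbx21 of NK and T cells stood at 7.10 ± 0.310 CPM in WT and 0.0287 ± 0.0249 CPM in BN1. Eomes stood at 7.54 ± 0.899 CPM in WT, with no count in BN1. Irf factors fell in 10 of 12 (in both, 10 lower and 1 higher of 11), and the rise was of a gene that only shares the symbol. Irf4, the factor of plasma cells and activated lymphocytes, stood at 82.6 ± 5.24 CPM in WT and 2.75 ± 0.323 CPM in BN1. Irf7, the amplifier of interferon, stood at 148 ± 3.76 CPM in WT and 14.8 ± 1.14 CPM in BN1. Forkhead factors fell in 14 and rose in 2 of 17 tested genes (44 in the table; in both, 11 lower and 2 higher of 14), Foxo1 falling from 61.1 ± 0.212 CPM to 13.8 ± 1.95 CPM. Sox6, which silences embryonic globin in red cells, stood at 76.3, 71.9 and 73.7 CPM in WT and 0, 0.0450 and 0 CPM in BN1 (5381-fold lower, counting interval 965 to 212597). Klf5 stood at 22.6, 24.9 and 24.0 CPM in WT, with no count in any BN1 library (at least 576-fold lower). Spib of B and plasmacytoid dendritic cells fell (297 ± 23.1 CPM in WT and 0.178 ± 0.0532 CPM in BN1). Erg (39.5 ± 3.01 CPM in WT and 75.9 ± 1.49 CPM in BN1) and Etv6 (103 ± 4.63 CPM in WT and 196 ± 4.83 CPM in BN1), Ets factors of stem cells, rose. Krüppel-like factors fell in 10 and rose in 2 of 14 tested genes (17 in the table; in both, 7 lower and 2 higher of 11). Ets factors fell in 12 and rose in 4 of 19 tested genes (25 in the table; in both, 8 lower and 4 higher of 15). Stat factors fell in 3 and rose in 2 of 7 tested genes (7 in the table; all in both). Nuclear receptors, which bind steroids, retinoids and other lipids, rose in 12 and fell in 7 of 25 (in both, 3 lower and 9 higher of 16). Helix-loop-helix genes fell in 13 and rose in 3 of 19 tested genes (24 in the table; in both, 10 lower and 3 higher of 14). Of these the E protein Tcf4 fell (87.7 ± 3.53 CPM in WT and 1.88 ± 0.255 CPM in BN1), and Lyl1 (179.9 ± 16.0 CPM in WT and 369.6 ± 18.5 CPM in BN1) and Tfec of macrophages (17.6 ± 1.52 CPM in WT and 143 ± 5.22 CPM in BN1) rose.

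Zinc finger genes named Zfp, a large group of DNA-binding proteins, many of them repressors, ran the other way, with 148 of 324 tested higher and 81 lower (in both, 59 lower and 141 higher of 292). With library size alone in place of TMM scaling 178 were higher and 69 lower. Against a minimum change of 1.5-fold 69 rose and 53 fell. Zfp507 (log2 fold change -8.26 ± 0.34) fell, and Zfp111 (3.36 ± 0.488 CPM in WT and 28.7 ± 1.62 CPM in BN1) and Zfp820 (1.17 ± 0.292 CPM in WT and 11.5 ± 0.959 CPM in BN1) rose. Of 17 circadian clock genes 11 fell and 4 rose (in both, 9 lower and 4 higher of 15). Per2 (22.3 ± 2.06 CPM in WT and 4.52 ± 0.411 CPM in BN1) and Arntl (27.3 ± 0.975 CPM in WT and 10.5 ± 0.128 CPM in BN1) fell, and Per3 (9.06 ± 0.717 CPM in WT and 24.7 ± 1.80 CPM in BN1), Clock (19.9 ± 2.54 CPM in WT and 45.3 ± 2.33 CPM in BN1) and Cry2 (17.3 ± 0.621 CPM in WT and 29.4 ± 0.528 CPM in BN1) rose, and the time of day of collection is not stated in the labels. Histone deacetylases and demethylases fell in 17 and rose in 6 of 33 tested genes (33 in the table; all in both), Hdac10 (log2 fold change -2.43 ± 0.11) and Kdm7a (log2 fold change -1.69 ± 0.06) falling the most. Histone genes fell in 48 of 61 and rose in none (in both, 22 lower and 0 higher of 23). The variant H2afz stood at 637 ± 53.4 CPM in WT and 340.1 ± 20.2 CPM in BN1. Replication-linked histone transcripts mostly lack the polyadenylated tail that these libraries select, and many are near-identical copies. Adjusted p of the genes named ran from 4.2e-29 to 1.0e-09.

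Families of the cell surface, matrix and cell guidance mostly fell in more members than rose, and cadherins went the other way. Metalloproteases of the matrix fell in 10 and rose in 2 of 14 tested genes (28 in the table; in both, 5 lower and 2 higher of 7). Mmp9, stored in neutrophil granules, stood at 2967, 2955 and 2956 CPM in WT and 97.3, 94.1 and 101 CPM in BN1 (log2 fold change -4.92 ± 0.06). Mmp25 stood at 235 ± 2.55 CPM in WT and 16.8 ± 0.0915 CPM in BN1, while Mmp19 (3.97 ± 0.555 CPM in WT and 48.6 ± 1.29 CPM in BN1) and Mmp28 (5.83 ± 1.05 CPM in WT and 16.6 ± 0.254 CPM in BN1) rose. Semaphorins and plexins, guidance ligands and their receptors, fell in 16 and rose in 7 of 23 tested genes (33 in the table; in both, 9 lower and 6 higher of 15). The ligand Sema4d of T cells fell (313 ± 7.55 CPM in WT and 43.6 ± 2.32 CPM in BN1), with Sema4f (log2 fold change -7.49 ± 0.26) and Sema7a (log2 fold change -6.46 ± 0.24). The receptors Nrp2 (8.67 ± 0.592 CPM in WT and 30.5 ± 0.568 CPM in BN1) and Plxna1 (5.52 ± 0.540 CPM in WT and 11.6 ± 0.554 CPM in BN1) rose. Genes of the TGF-beta and BMP pathway fell in 22 and rose in 6 of 35 tested genes (56 in the table; in both, 14 lower and 5 higher of 24). The ligand subunit Inhba stood at 18.8 ± 1.95 CPM in WT and 0.0405 ± 0.0385 CPM in BN1, and the receptors Bmpr1a (log2 fold change -4.63 ± 0.24) and Tgfbr2 (log2 fold change -4.11 ± 0.09) fell, while the ligand Tgfb1 (255 ± 12.3 CPM in WT and 413 ± 10.6 CPM in BN1) and the receptor Bmpr2 (39.1 ± 3.95 CPM in WT and 64.5 ± 5.50 CPM in BN1) rose. Genes of the Wnt and Notch pathways fell in 18 and rose in 11 of 33 tested genes (58 in the table; in both, 10 lower and 7 higher of 19). Dtx1, a regulator of Notch in lymphocytes, had no count in BN1 (at least 495-fold lower). Adam and Adamts proteases fell in 14 and rose in 8 of 26 tested genes (58 in the table; in both, 4 lower and 6 higher of 11), Adam19 falling to 1.81 ± 0.292 CPM from 202 ± 2.01 CPM. Eph receptors and ephrins, with Unc genes that share the pattern, fell in 10 and rose in 2 of 15 tested genes (39 in the table; in both, 2 lower and 2 higher of 6). The rises took in an Unc gene. Laminins and other basement membrane genes fell in 11 and rose in 4 of 22 tested genes (40 in the table; in both, 4 lower and 2 higher of 9). Serpins fell in 11 and rose in 4 of 15 tested genes (62 in the table; in both, 5 lower and 1 higher of 6). Cadherins and protocadherins, which join cells of a kind, rose in 19 and fell in 11 of 40 (in both, 4 lower and 8 higher of 12), with a median log2 fold change of 0.62. Against that direction Cdh1 (E-cadherin) stood at 19.9, 21.4 and 18.4 CPM in WT, with no count in any BN1 library (at least 482-fold lower).

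Collagen chains divided, 10 lower and 7 higher of 20 (in both, 2 lower and 3 higher of 6). Col5a3 (32.6 ± 3.48 CPM in WT and 0.577 ± 0.213 CPM in BN1), Col27a1 (log2 fold change -5.95 ± 0.30) and Col5a1 (log2 fold change -3.93 ± 0.18) fell. Col6a4, Col6a5 and Col6a6, 3 chains of collagen VI encoded next to each other over 407 kb of chromosome 9 (from 105689417 to 106096828), rose from at most 1 count over the WT libraries. Col6a4 stood at 0.0498, 0 and 0 CPM in WT and 43.5, 43.6 and 47.5 CPM in BN1 (2518-fold higher, counting interval 452 to 99474). Col6a6 stood at 0, 0.0563 and 0 CPM in WT and 11.3, 11 and 11.5 CPM in BN1 (631-fold higher, counting interval 113 to 24959.5), and Col6a5 reached 7.92 ± 1.62 CPM in place of no count (at least 149-fold higher). MA9 and ME lay above WT and below BN1, with Col6a4 at 1.69 ± 0.352 CPM in MA9 and 4.81 ± 0.625 CPM in ME and Col6a6 at 6.29 ± 0.622 CPM in MA9 and 0.966 ± 0.174 CPM in ME, and BN1 was above their mean for Col6a4 (log2 fold change 3.97 ± 0.10) and Col6a5 (2.05 ± 0.18). Dsg2, a desmosomal cadherin, also rose from near 0, to 16.0 ± 1.09 CPM (892-fold higher, counting interval 159.9 to 35278). Adjusted p in these paragraphs on the surface and matrix ran from 1.5e-30 to 1.3e-05.

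**Figure D3:**
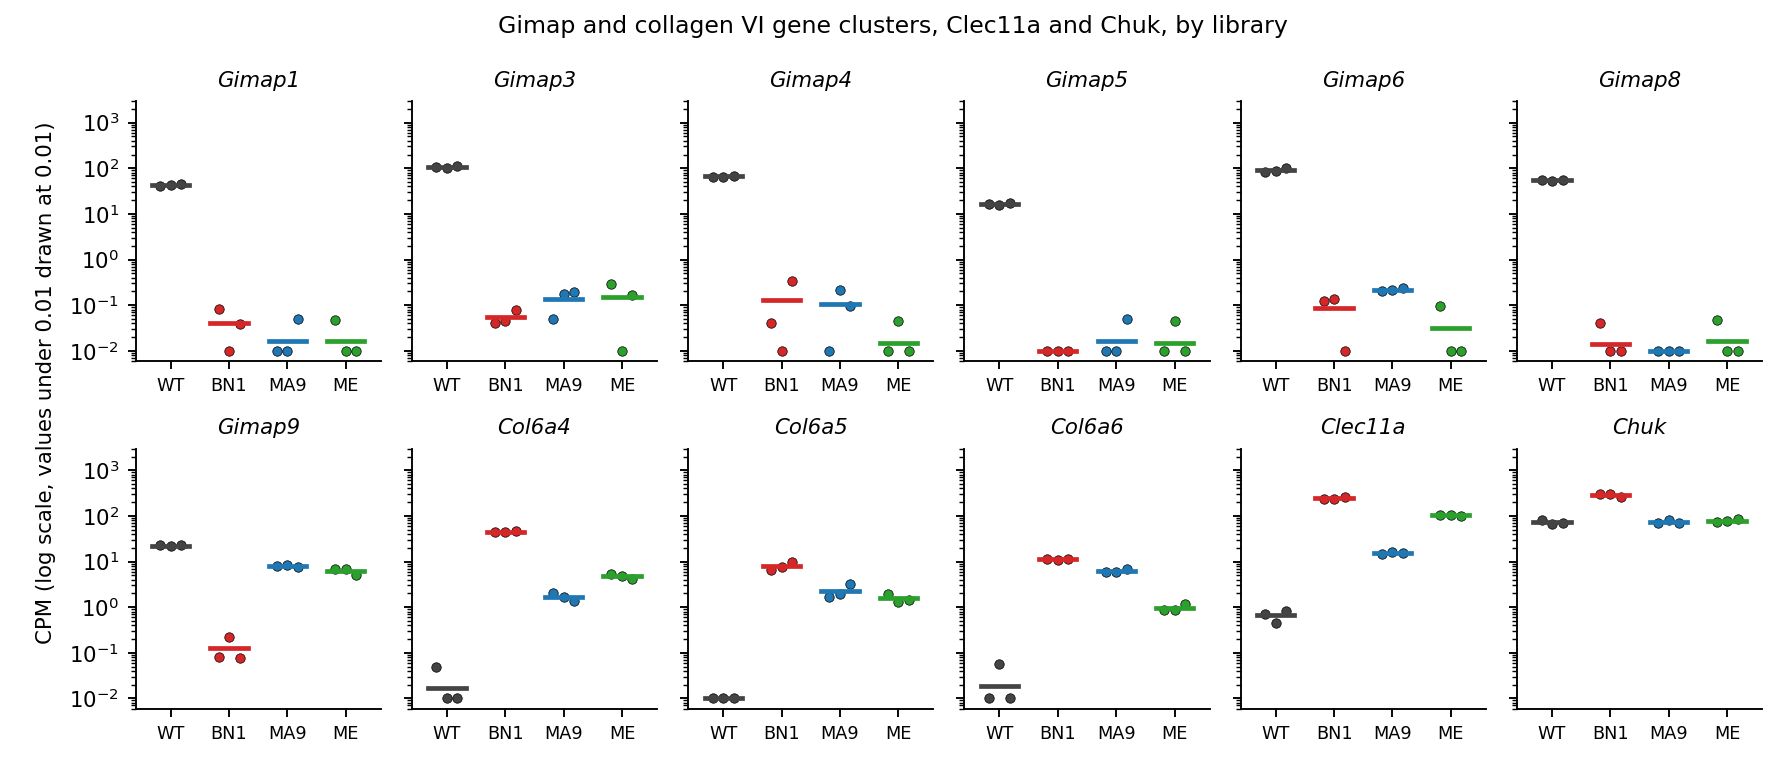
CPM (log scale) of 7 Gimap genes, the 3 neighbouring collagen VI genes, Clec11a and Chuk in the 12 libraries, with points for libraries and bars for group means. WT is high and BN1 near 0 for the Gimap genes, WT is near 0 and BN1 high for the collagen genes, and Gimap9 keeps several CPM in MA9 and ME.

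Enzymes that make sugar and sulfate patterns on surface proteins differed by list. Glycosyltransferases outside the sialyl and fucosyl groups were close to even, 25 lower and 22 higher of 58 (in both, 19 lower and 21 higher of 48). Sialyl- and fucosyltransferases and their partners fell in 15 and rose in 5 of 23 tested genes (34 in the table; in both, 8 lower and 4 higher of 15). St6gal1, which caps B cell glycoproteins with sialic acid, stood at 59.8, 59.3 and 65.1 CPM in WT and 0.206, 0.315 and 0 CPM in BN1 (log2 fold change -8.49 ± 0.24). Cmah, which makes the sialic acid form that humans lack, stood at 140.1, 117 and 129.7 CPM in WT and 0.206, 0.225 and 0.306 CPM in BN1 (log2 fold change -8.99 ± 0.14). The sialidase Neu1 rose (81.0 ± 1.85 CPM in WT and 175 ± 5.69 CPM in BN1). Sulfotransferases and heparan enzymes fell in 21 and rose in 9 of 32 tested genes (51 in the table; in both, 11 lower and 9 higher of 21). Chst3, which sulfates chondroitin, stood at 123, 122 and 145 CPM in WT and 0, 0.0450 and 0 CPM in BN1 (9439-fold lower, counting interval 1694 to 372865). Srgn, the core protein of granule proteoglycan, rose (314 ± 2.51 CPM in WT and 1415 ± 64.8 CPM in BN1), with the heparan polymerase Ext2 (37.2 ± 2.36 CPM in WT and 171 ± 3.66 CPM in BN1).

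Enzymes of lipid mediators moved in both directions. Of 26 eicosanoid genes tested 16 fell and 8 rose, while 6 fell and 8 rose of the 15 above the filter level in both groups. Alox5, which starts leukotriene synthesis, stood at 271, 259.6 and 264 CPM in WT and 7.49, 7.56 and 7.51 CPM in BN1 (log2 fold change -5.14 ± 0.07). The next enzyme, Lta4h, was higher (438 ± 5.69 CPM in WT and 808 ± 12 CPM in BN1), and so was the prostaglandin enzyme Ptgs1 (72.8 ± 3.45 CPM in WT and 140.3 ± 2.34 CPM in BN1). Ggt1, which trims cysteinyl leukotrienes, fell (log2 fold change -6.03 ± 0.33). Hpgd, which breaks prostaglandins down, stood at 18.3, 18.6 and 21.1 CPM in WT and 0.329, 0.585 and 0.191 CPM in BN1 (log2 fold change -5.73 ± 0.14). The reductases Ptgr1 (43.4 ± 2.09 CPM in WT and 106 ± 4.46 CPM in BN1) and Ptgr2 (39.0 ± 3.69 CPM in WT and 94.0 ± 5.10 CPM in BN1) rose. Pla2g7, which degrades platelet-activating factor, stood at 91.6 ± 3.73 CPM in WT and 0.374 ± 0.150 CPM in BN1. Enzymes of diacylglycerol and lipid phosphates fell in 23 and rose in 5 of 31 tested genes (36 in the table; in both, 18 lower and 4 higher of 24). Plpp1 fell (log2 fold change -7.46 ± 0.36) and Plpp5 rose (15.6 ± 2.38 CPM in WT and 81.3 ± 3.65 CPM in BN1). Sphk1, which makes sphingosine phosphate, stood at 24.0 ± 1.64 CPM in WT and 0.0255 ± 0.0442 CPM in BN1 (867-fold lower, counting interval 239.7 to 7170.2). Mfsd2b, which exports it from red cells and platelets, stood at 67.8 ± 5.50 CPM in WT and 0.668 ± 0.116 CPM in BN1. The phosphoinositide phosphatase Inpp4b had no count in BN1 (at least 419-fold lower). Adjusted p in these 2 paragraphs ran from 5.0e-30 to 1.3e-15.

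Redox and detoxifying enzymes were close to even or higher as families, and enzymes of arginine, polyamines and tryptophan were mostly lower. Glutathione S-transferases rose in 11 and fell in 5 of 18 (in both, 3 lower and 8 higher of 12). Gstm2 (0.176 ± 0.106 CPM in WT and 16.9 ± 0.719 CPM in BN1), Gstk1 (2.23 ± 0.436 CPM in WT and 23.2 ± 1.52 CPM in BN1) and Gstm7 (0.430 ± 0.0578 CPM in WT and 5.72 ± 0.659 CPM in BN1) rose. Gstm5 (332-fold lower, counting interval 91.3 to 2745) and Mgst3 (47.8 ± 5.31 CPM in WT and 6.13 ± 0.627 CPM in BN1) fell, and Gstm genes are close copies. Aldh1a1, which makes retinoic acid, stood at 38.2, 45.4 and 45.6 CPM in WT, with no count in any BN1 library (at least 1039-fold lower). Aldh5a1 rose (1.49 ± 0.250 CPM in WT and 12.2 ± 1.95 CPM in BN1). Cyp11a1, the first enzyme of steroid synthesis, had no count in BN1 (at least 237-fold lower). Antioxidant enzymes counted 16 lower and 17 higher of 35 (in both, 14 lower and 17 higher of 33). Prdx2, the peroxiredoxin of red cells, fell (337 ± 27.3 CPM in WT and 104 ± 0.943 CPM in BN1), with the quinone reductase Nqo1 (log2 fold change -6.21 ± 0.36). The metallothionein Mt1 (11.2 ± 1.60 CPM in WT and 61.6 ± 0.779 CPM in BN1) and Srxn1 (7.68 ± 0.439 CPM in WT and 22.6 ± 2.45 CPM in BN1) rose. Enzymes of arginine, polyamines and tryptophan fell in 16 and rose in 4 of 23 tested genes (31 in the table; in both, 13 lower and 4 higher of 19). Kmo of tryptophan breakdown stood at 45.3, 39.6 and 48.5 CPM in WT and 0, 0.0450 and 0.0383 CPM in BN1 (1617-fold lower, counting interval 447 to 13363), and Kynu of the same route had no count in BN1 (at least 183-fold lower). Arg2 of the arginine branch fell (log2 fold change -4.73 ± 0.18). The polyamine enzymes Srm (34.1 ± 1.97 CPM in WT and 59.7 ± 3.90 CPM in BN1) and Paox (15.4 ± 1.39 CPM in WT and 37.2 ± 1.67 CPM in BN1) rose. Purine and pyrimidine genes rose in 21 and fell in 12 of 37 (in both, 10 lower and 21 higher of 35). Cad (73.1 ± 4.58 CPM in WT and 150.0 ± 5.54 CPM in BN1) and Umps (40.0 ± 2.58 CPM in WT and 105 ± 3.80 CPM in BN1) of pyrimidine synthesis rose, and 3 genes of breakdown fell, namely Upp1 (log2 fold change -5.26 ± 0.31), Nt5e (log2 fold change -4.01 ± 0.19) and Enpp1 (log2 fold change -4.20 ± 0.22). Cd36, a fatty acid importer, fell (59.7 ± 5.77 CPM in WT and 1.83 ± 0.417 CPM in BN1). The peroxisomal thiolase Acaa1b rose (0.50 ± 0.401 CPM in WT and 14 ± 2.43 CPM in BN1). Adjusted p ran from 1.6e-21 to 2.9e-09.

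Much of the machinery that every cell uses was kept, and several lists of it rose in more members than fell. Other lists did not. DNA repair genes had 20 higher and 20 lower of 50, and F-box proteins 19 higher and 29 lower of 55. Proteasome subunits rose in 29 of 37 and fell in 1, with a median log2 fold change of 0.30, mitochondrial ribosomal proteins rose in 52 of 77 and fell in 6 (0.35), and factors of import into mitochondria rose in 18 of 23 and fell in 1 (0.47). tRNA synthetases rose in 25 of 39 and fell in 4. Translation initiation factors rose in 37 of 54 and fell in 13. The group of Integrator, exosome and RNA modification genes rose in 48 of 66 and fell in 7. All genes above the filter level in both groups rose in 43.5%. These shifts were modest. Against a minimum change of 1.5-fold, 4 proteasome, 11 mitochondrial ribosomal, 9 import, 8 synthetase, 10 initiation and 8 RNA modification genes rose. Psmd5, a chaperone of proteasome assembly, rose the most of its family (45.0 ± 1.71 CPM in WT and 122 ± 6.25 CPM in BN1), and Timm17a (17.0 ± 0.342 CPM in WT and 47.5 ± 3.35 CPM in BN1), Mrpl17 (22.4 ± 1.04 CPM in WT and 53.2 ± 0.628 CPM in BN1) and Eif5b (90.9 ± 7.62 CPM in WT and 199.9 ± 5.27 CPM in BN1) led theirs.

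Folding genes of the endoplasmic reticulum rose by more as a list. Of 44 tested genes of protein folding in the endoplasmic reticulum 28 rose and 12 fell, 22 and 5 of them past 1.5-fold, and their summed level stood at 5369.7 to 5431 CPM in the WT libraries and 10851 to 11047 CPM in the BN1 libraries. Creld2 stood at 22.1, 25.4 and 24.2 CPM in WT and 149, 145 and 143 CPM in BN1 (log2 fold change 2.61 ± 0.06), Hyou1, a large chaperone, at 99.4, 104 and 101 CPM in WT and 438, 431 and 457 CPM in BN1 (log2 fold change 2.12 ± 0.05). Sdf2l1 stood at 32.3 ± 2.88 CPM in WT and 149.8 ± 0.962 CPM in BN1. Calr (calreticulin), a calcium-binding chaperone of glycoproteins, stood at 422, 434 and 437 CPM in WT and 1528, 1570.0 and 1476 CPM in BN1 (log2 fold change 1.82 ± 0.04). The groups did not overlap for these 4 genes. The sensor side did not follow as a block, since the sensor Ern1 (53.9 ± 1.81 CPM in WT and 130.0 ± 5.22 CPM in BN1) and Xbp1 (149.9 ± 4.75 CPM in WT and 221 ± 1.65 CPM in BN1) rose and Ddit3 (26.4 ± 3.02 CPM in WT and 11.5 ± 0.559 CPM in BN1), Atf6 (-0.36 ± 0.05) and Eif2ak3 (-0.49 ± 0.06) fell. Txndc5, a disulfide enzyme of plasma cells, fell too (147 ± 1.97 CPM in WT and 61.6 ± 0.988 CPM in BN1).

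Lysosome genes rose in 33 of 48 and fell in 10, 25 and 4 past 1.5-fold, with a summed level of 6685 to 6857 CPM in the WT libraries and 10919 to 11063 CPM in the BN1 libraries. Lamp1, the main coat protein of the lysosome, stood at 426, 411 and 412 CPM in WT and 1473, 1556 and 1441 CPM in BN1 (log2 fold change 1.84 ± 0.05). The sorting receptor M6pr rose (189 ± 4.49 CPM in WT and 466 ± 8.48 CPM in BN1). Its larger counterpart Igf2r, which also takes enzymes to lysosomes, fell (65.7 ± 3.18 CPM in WT and 19.8 ± 2.35 CPM in BN1), as did the granule tetraspanin Cd63 (107 ± 5.44 CPM in WT and 8.50 ± 0.788 CPM in BN1) and the master regulator Tfeb (89.4 ± 2.02 CPM in WT and 33.8 ± 2.03 CPM in BN1), while its relative Tfec rose. Primary granule markers, which rose with these lists, are proteins of lysosome-related granules made in the endoplasmic reticulum, and their part in these rises was not tested. Heat shock proteins rose in 17 of 24, with the inducible pair Hspa1a (0.841 ± 0.0534 CPM in WT and 5.93 ± 0.694 CPM in BN1) and Hspa1b (1.5 ± 0.183 CPM in WT and 9.99 ± 0.818 CPM in BN1), near-identical copies, from low levels. Peroxins, which assemble peroxisomes, rose in 11 of 16, Pex11a the most (1.98 ± 0.279 CPM in WT and 16.9 ± 0.371 CPM in BN1). Autophagy genes fell in 23 and rose in 9 of 38 tested genes (38 in the table; in both, 22 lower and 8 higher of 36). The autophagy receptor Optn stood at 56.6, 54.8 and 60.4 CPM in WT and 0.288, 0.180 and 0.191 CPM in BN1 (log2 fold change -7.98 ± 0.18). Trim ubiquitin ligases also fell in most, 31 of 47 (in both, 24 lower and 10 higher of 39). Trim10 stood at 132, 151 and 155 CPM in WT, with no count in any BN1 library (at least 3529-fold lower). Trim58 of red cells stood at 26.9 ± 3.75 CPM in WT and 0.0150 ± 0.0260 CPM in BN1. Coagulation genes fell in 12 and rose in 6 of 19 tested genes (26 in the table; in both, 6 lower and 5 higher of 12). F13a1 (781 ± 66.7 CPM in WT and 3433 ± 76.5 CPM in BN1) and F10 (54.4 ± 2.50 CPM in WT and 234 ± 7.97 CPM in BN1), clotting factors also made by monocytes, rose. F2r, a thrombin receptor, fell (505-fold lower, counting interval 90.1 to 19988). Adjusted p of the called genes in these paragraphs on shared machinery ran from 3.5e-25 to 3.1e-07.

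**Figure D4:**
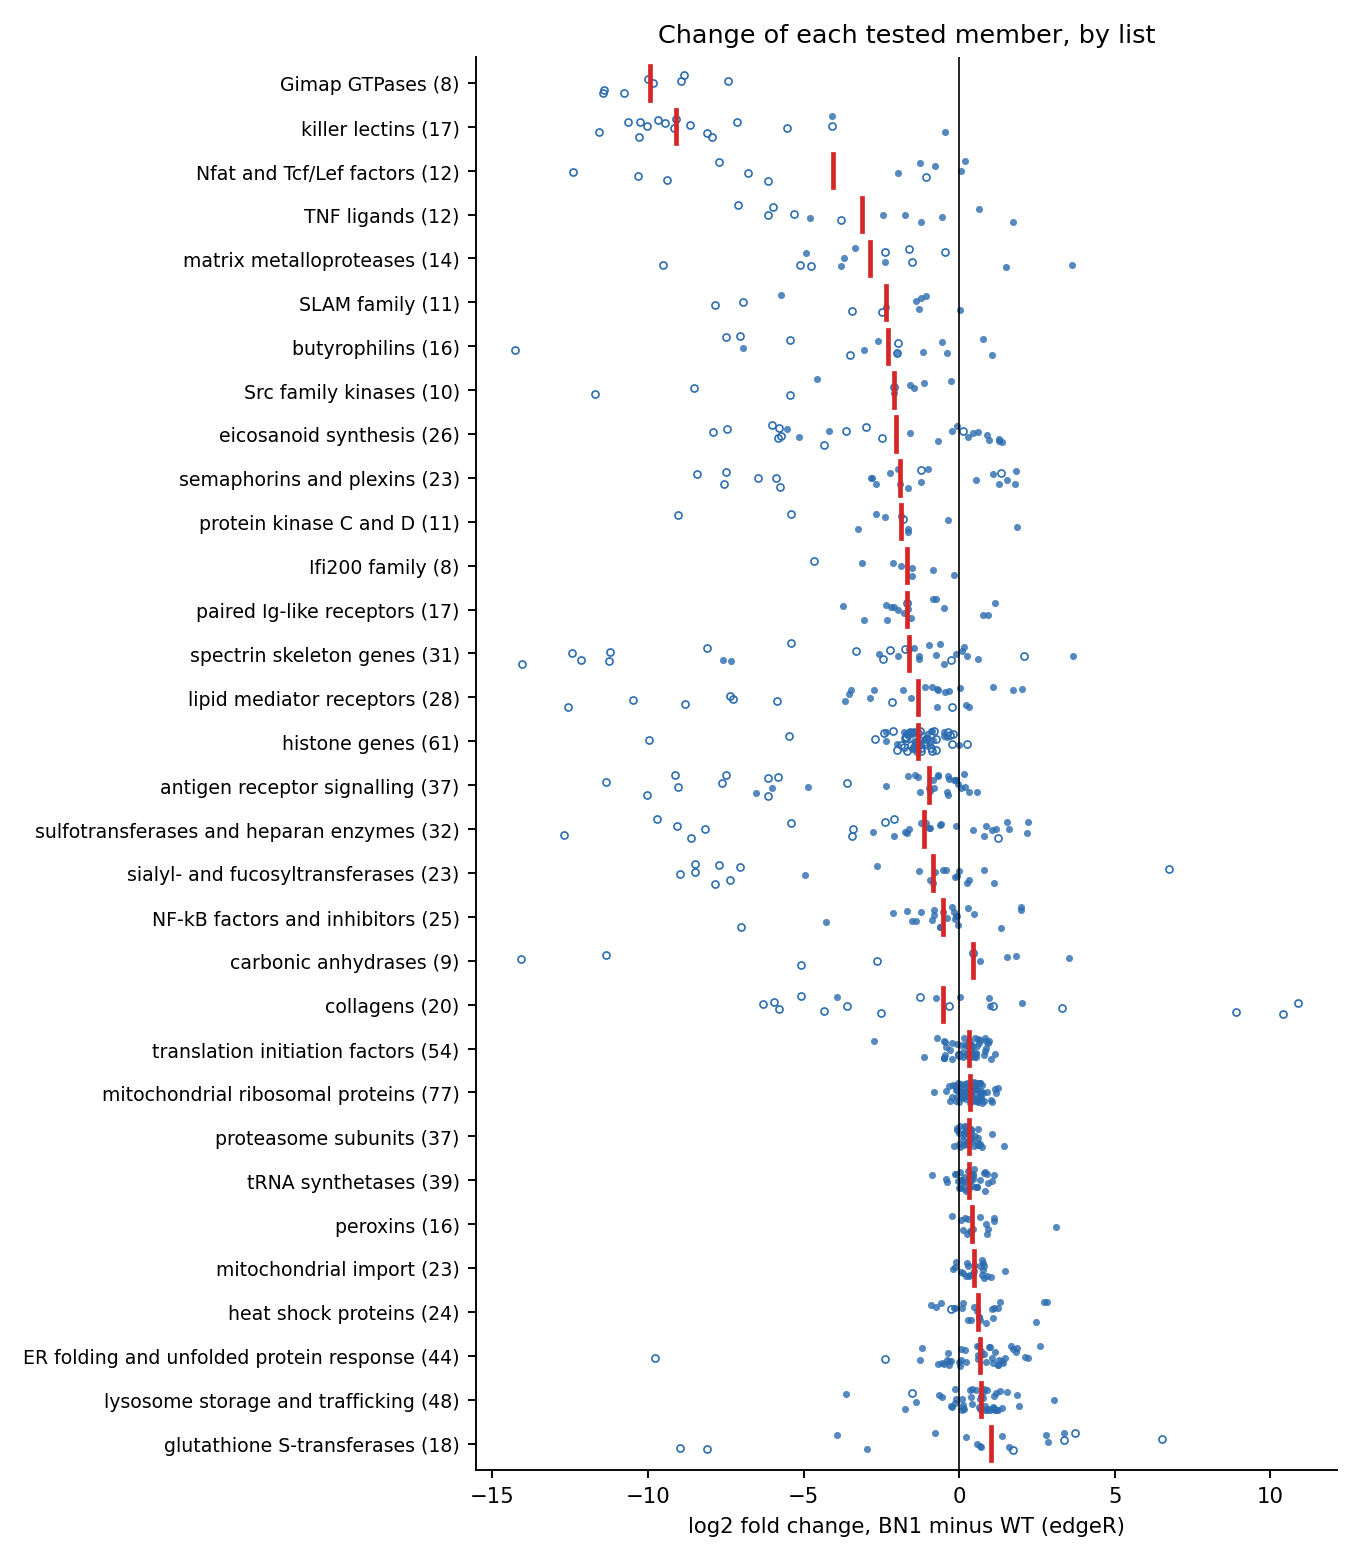
Log2 fold change, BN1 minus WT, of each tested member of 32 lists, with filled points for genes above the filter level in both groups, open points for the others and a red bar for the median. Gimap and most killer lectin genes lie far to the left, and proteasome and mitochondrial genes form narrow groups mostly right of 0. Folding genes spread more widely, with members on both sides of 0.

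Some of the genes lost in BN1 were present in the leukemias with MLL fusions. BN1, MA9 and ME are each set against the same WT libraries, and the test given here compares BN1 with the mean of MA9 and ME, in which 10579 genes (69.0%) were called, 34.1% higher and 34.9% lower. Of the 286 genes open to naming by the rule that had BN1 at under 10% of WT, 12 stood at 50% or more of WT in both MA9 and ME. This set and the next were chosen after the values were seen, for how BN1 differed from MA9 and ME, so their differences from the MLL mean describe the choice and are no test. Hpgd stood at 846 ± 42.9 CPM in MA9 and 943 ± 16.5 CPM in ME against 19.4 ± 1.53 CPM in WT and 0.368 ± 0.200 CPM in BN1 (BN1 minus the MLL mean, log2 fold change -11.26 ± 0.11). Cd63, a granule and endosome tetraspanin, stood at 318 ± 4.47 CPM in MA9 and 177 ± 19.4 CPM in ME against 107 ± 5.44 CPM in WT and 8.50 ± 0.788 CPM in BN1 (-4.80 ± 0.08). Col5a3 stood at 21.9 ± 3.30 CPM in MA9 and 36.9 ± 1.92 CPM in ME (-5.60 ± 0.16), Slc22a3, an organic cation carrier, at 14.9 ± 1.71 CPM in MA9 and 10.9 ± 1.51 CPM in ME with no count in BN1. Gstt2 stood at 10.8 ± 1.18 CPM in MA9 and 17.8 ± 1.18 CPM in ME (-4.21 ± 0.16). The lipase Plcb4 (-4.45 ± 0.19), Enpp1 (-4.34 ± 0.20) and Trim68 (-6.88 ± 0.23) belong to the set. Of the last 4, Dach1, a repressor of transcription, stood at 33.5 ± 2.96 CPM in MA9 and 38.3 ± 1.71 CPM in ME and Zfp973 at 5.68 ± 1.14 CPM in MA9 and 8.88 ± 1.32 CPM in ME, both without a count in BN1, and the protease inhibitor Serpine2 (5.70 ± 0.961 CPM in MA9 and 9.08 ± 0.760 CPM in ME) and Zfp968 (7.82 ± 1.94 CPM in MA9 and 11.4 ± 0.830 CPM in ME) had 3 and 2 counts there.

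In the other direction, 62 such genes had WT at under 10% of BN1, and 20 of them stood at under 10% of the BN1 level in both MLL leukemias. Gpr119 stood at 0.0288 ± 0.0498 CPM in MA9 and 0.0336 ± 0.0296 CPM in ME against 28.4 ± 2.95 CPM in BN1. Cct6b, a chaperonin subunit of testis, stood at 0.299, 0.675 and 0.331 CPM in WT and 17.8, 19.3 and 19.6 CPM in BN1, with 0.230 ± 0.102 CPM in MA9 and 0.310 ± 0.213 CPM in ME (6.13 ± 0.19). Plekhg4 (6.66 ± 0.15), Gpr55 (5.10 ± 0.13), Ptprn, a phosphatase-like protein of secretory granules (6.41 ± 0.24), Rgs8 (5.58 ± 0.25), Car3 (4.54 ± 0.21) and Dsg2 (5.38 ± 0.17) belong here. The acute-phase protein Saa3 (5.43 ± 0.07) and Tmem178, a membrane protein of the endoplasmic reticulum (8.77 ± 0.06), stood at 151 ± 8.20 CPM and 472 ± 11.1 CPM in BN1.

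**Figure D5:**
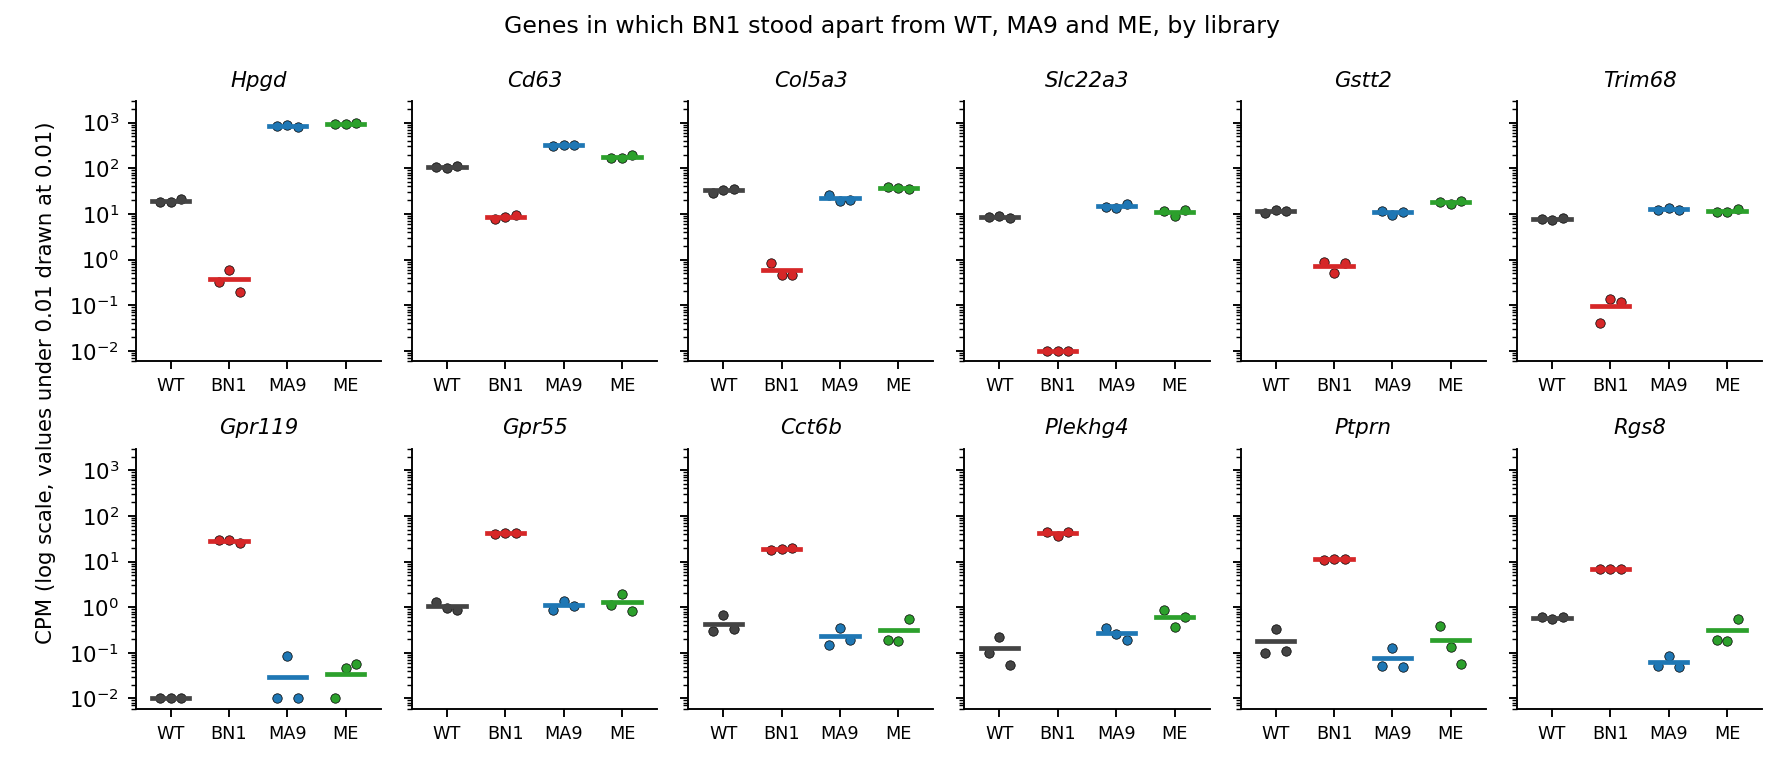
CPM (log scale) of 6 genes low in BN1 (upper row) and 6 genes high in BN1 (lower row) in the 12 libraries, with points for libraries and bars for group means. In each panel the 3 BN1 points lie apart from the points of the other 3 groups, which is how the genes were chosen.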

How the data were processed

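Polyadenylated RNA of sorted marrow cells was sequenced from stranded libraries, per the labels' protocols. The values are counts per gene, deposited by the authors in a table of 12 libraries. The submitters' processing notes name HISAT2, featureCounts, DESeq2 and the mouse build mm10. For versions, strand setting and multiply mapping reads, the sources used here give nothing. Library totals are given at the start of the results.

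Genes were kept by filterByExpr of edgeR 4.0.16 (R 4.3.3, minimum count 10, which asked for 0.48 CPM), counts were scaled by TMM (factors 0.928 to 1.051), and a robust quasi-likelihood model was fitted to all 12 libraries in 4 groups, so that the spread was estimated with 8 residual degrees of freedom. Genes at 0 in all libraries numbered 10859. BN1 was set against WT, and against the mean of MA9 and ME, with Benjamini-Hochberg adjustment over 15334 genes. The script was tested on simulated data. Replicates of a group differed by more than sampling noise, so none was counted as a repeat of another.

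Families were taken by symbol pattern (105), functions by hand-made lists (17) and markers by 12 lists. A pattern can take in a gene that only shares the symbol. The members and lists were chosen with earlier results of these data known. Per list, up to 3 called genes per direction were named by largest change, with no overlap of the groups and at least 5 CPM in the higher group, and also the uncalled gene nearest to no change. All tested members of the spectrin, Src, Tec, carbonic anhydrase and Gimap groups and of the marker lists could be named too, as could ranks 1 to 20 over all genes, though some genes are not reported here. Alox5, Atf6, Calr, Eif2ak3, Ern1, H2afz, Klra2, Lta4h, M6pr, Ptgs1, Rel and S1pr4 were chosen after their values were seen.

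Positions and the bases before gene starts came from RefSeq tables for GRCm38.p6, which matched 33465 of 35976 symbols. Alternatives were DESeq2 1.42.0, limma-voom (limma 3.58.1), 3 other scalings, 2 other filters, a fit to BN1 and WT alone, a replicate block, a minimum change of 1.5-fold and each library left out.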

Additional observations from a re-analysis of the deposited data

How the results depend on the processing

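The counts of called genes held within 1.5 times under every alternative run except a minimum change of 1.5-fold, by whose construction smaller changes drop out. With it, BN1 differed from WT in 7059 genes (2904 higher, 4155 lower) and from the 2 MLL leukemias in 4146. With each of the 12 libraries left out in turn, 11940 to 12522 genes were called, 5763 to 6024 higher and 6172 to 6498 lower, with 5916 to 6108 past 2-fold, and 9941 to 10743 differed from the MLL leukemias. Of the genes named, 2 changed direction, both with library size alone, namely Tpm3 (log2 fold change 0.029, adjusted p = 0.54 in edgeR) and Tyk2 (0.12, adjusted p = 0.033). A fit with the replicate number as a block called 12042 genes, 5833 higher and 6209 lower. The correlations of deviations between same-numbered libraries were 0.12, -0.10 and 0.14. Those between differently numbered libraries ran from -0.26 to 0.15. With 3 libraries per group these values cannot decide whether the numbers pair the libraries. Of 268 list counts, 118 moved by over 1.5 times under the minimum change of 1.5-fold, and 14 with library size alone. Depth limits genes with few counts in a group, whose folds are bounds or carry wide intervals.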
